A study of Homo sapiens with 6 samples.

Results

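Interferons are antiviral cytokines, and this account covers the genes of 4 interferon ligands and 6 receptor chains in colorectal cancer cells transfected with small interfering RNA (siRNA) against the long noncoding RNA GLCC1, or with control siRNA. The members were taken by gene symbol from the 56638 symbols that the count files list, and they were chosen with earlier results of these data known. They are IFNB1, the type I interferon beta, IFNL1, IFNL2 and IFNL3, the type III or lambda interferons, and the receptor chains IFNAR1, IFNAR2, IFNGR1, IFNGR2, IFNLR1 and IL10RB. All 10 had a count in at least 1 library, and all 10 passed the filter of at least 5 counts summed over a condition. The 6 receptor chains passed it in both conditions, whereas each of the 4 ligands passed through the GLCC1 siRNA libraries alone, so that their rise is partly set by the filter.

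RNA was sequenced from 3 libraries labelled control siRNA, which received a nonspecific siRNA, and 3 libraries labelled lncRNA-AF339830 siRNA. That transcript is called GLCC1 in the study, and the comparison asks which genes change when it is knocked down. The labels name SW480 cells, an established colorectal cancer line, whereas the study's methods name DLD-1 cells for this experiment, and which line was used was not tested. All libraries come from 1 cell line grown in culture, transfected in the same way, without added interferon named in the labels, and the time between transfection and harvest is not given in the sources used here. The groups follow the sample titles, source names and genotypes, although the names given to the sequencing libraries point to the opposite assignment, under which every direction below would be turned. GLCC1 has no row of its own in the count files, so its knockdown could not be read from a count. The labels do not state that the libraries came from separate cultures, and the p-values then measure only the spread between these libraries.

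Control libraries held 15002165 to 19042516 read pairs on genes and GLCC1 siRNA libraries 11948790 to 18390975, with GLCC1 siRNA replicate 2 the smallest. Levels are given as CPM, counts scaled to library size with TMM factors, and every fold change sets GLCC1 siRNA over control siRNA, from the quasi-likelihood test of edgeR, with p-values adjusted over the 23074 genes tested. The median log2 fold change of all genes tested was 0.03, and 0.15 with library totals as the only scaling. Of 8 markers of intestinal epithelium, 8 had at least 1 CPM in every library. Their summed level was 5644 to 6159 CPM in control libraries and 2398 to 2769 CPM in GLCC1 siRNA libraries, most of it from keratins. Of 10 markers of blood, stromal and endothelial cells, 4 had no count in any library (PTPRC, LILRA4, CLEC4C and PECAM1), and no transcript length was available for PECAM1. Another 2, COL1A1 and CD14, had at least 1 CPM in every library. COL1A1 fell from a mean of 13.4 CPM to 7.37 CPM (adjusted p = 2.9e-04 from edgeR). CD14 had means of 3.29 and 4.39 CPM (adjusted p = 0.143 from edgeR). The summed level of the list was between 16.4 and 18.9 CPM in control and between 10.3 and 14 CPM in GLCC1 siRNA libraries.

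Interferons are secreted and act through paired receptor chains at the cell surface. Type I interferons bind IFNAR1 with IFNAR2 on nearly all nucleated cells, type III interferons bind IFNLR1 with IL10RB mainly on epithelia, and interferon gamma, the type II interferon, binds IFNGR1 with IFNGR2. The receptors signal through Janus kinases to transcription factors that switch on antiviral genes. IL10RB is shared, since it also completes the receptors for interleukins 10, 22 and 26. In the intestinal epithelium, type III interferon is known as a main antiviral signal, and the ligand genes are themselves induced when sensors detect foreign RNA or DNA.

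The starts of the ligand genes are shown because interferon-induced genes often carry the interferon-stimulated response element. It was written here as GAAA, 2 bases of any kind and GAAA, and searched on both strands. The ligands differ in exact matches to this pattern. The windows run from 250 bases before to 50 bases after the start of the RefSeq transcript, from a table on GRCh38.p14 whose sequences were found unchanged in hg19, where the positions below apply. Capitals mark the motif, which in these genes is on the opposite strand and so reads TTTC, 2 bases of any kind and TTTC. IFNL1 is on the plus strand, with its window at chr19:39786797-39787096, IFNL2 is on the plus strand at chr19:39758786-39759085, and IFNB1 is on the minus strand at chr9:21077892-21078191.
IFNL1: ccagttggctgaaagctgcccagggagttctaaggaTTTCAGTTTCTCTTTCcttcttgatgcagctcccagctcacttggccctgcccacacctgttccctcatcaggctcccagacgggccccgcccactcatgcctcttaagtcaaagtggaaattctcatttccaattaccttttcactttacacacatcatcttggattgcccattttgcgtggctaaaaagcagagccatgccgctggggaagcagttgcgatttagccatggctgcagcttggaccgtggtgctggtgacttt
IFNL2: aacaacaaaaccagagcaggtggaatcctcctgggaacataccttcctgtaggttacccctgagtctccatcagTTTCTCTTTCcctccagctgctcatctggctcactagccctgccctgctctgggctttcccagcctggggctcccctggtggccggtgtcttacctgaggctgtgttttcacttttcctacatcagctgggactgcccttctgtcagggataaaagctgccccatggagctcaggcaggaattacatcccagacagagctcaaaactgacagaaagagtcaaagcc
IFNB1: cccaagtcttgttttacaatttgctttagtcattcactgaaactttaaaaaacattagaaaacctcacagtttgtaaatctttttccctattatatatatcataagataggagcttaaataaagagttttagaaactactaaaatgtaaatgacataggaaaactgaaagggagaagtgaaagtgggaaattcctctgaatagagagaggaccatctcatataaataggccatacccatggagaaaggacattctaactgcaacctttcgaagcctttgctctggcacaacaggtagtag

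The IFNL1 window held 2 overlapping matches, which begin 214 and 208 bases before the start, and the IFNL2 window held 1, which begins 176 bases before it. IFNL3, on the minus strand with its window at chr19:39735841-39736140, carried the same match at the same distance, and this window equalled that of IFNL2 at 299 of 300 bases, while a second window of IFNL3 held no match. No match was found in the window of IFNB1 or in those of the receptor chains, of which IFNAR2 had no window in the table. The motif was in 3.57% of all 35116 windows of that length. Counted by gene, 4.38% of 27305 genes had a window with it, as did 3 of the 9 members and 10 of the 11 listed genes induced by type I and type III interferon that had a window. The IFNB1 window holds GAAA repeats at other spacings, which this pattern does not count. A match is a description of the letters in these windows and no measurement of binding.

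The ligand genes were near the limit of detection in the control libraries and had more counts in the GLCC1 siRNA libraries in sum, but the gain was uneven between libraries. Over the 4 genes, 9 read pairs were counted in the 3 control libraries together and 53 in the 3 GLCC1 siRNA libraries. A count of 0 allows up to 3 counts, which corresponded to between 0.156 and 0.239 CPM per library, and the intervals below cover counting error only.

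IFNB1, a gene of 1 exon on chromosome 9 (hg19 chr9:21077103-21077941), had 1, 0 and 0 counts in the control libraries and 2 in each of the GLCC1 siRNA libraries. Every GLCC1 siRNA library was thus above every control library, by 1 or 2 read pairs, and all 6 values were within the limit that a count of 0 allows. The ratio of its summed counts per library size was 5.96 (95% exact interval 0.723 to 274), and edgeR gave an adjusted p of 0.214. A change of IFNB1 was therefore not detectable at this depth.

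IFNL1 (hg19 chr19:39787047-39789313, plus strand, 5 exons) had 3, 0 and 1 counts in control replicates 1, 2 and 3 and 21, 1 and 8 in GLCC1 siRNA replicates 1, 2 and 3. GLCC1 siRNA replicate 1 held most of the counts, whereas replicate 2 lay within the control range, so that the groups overlapped. The ratio of summed counts was 7.45 (95% exact interval 2.63 to 29.1). IFNL1 rose in edgeR, with a log2 fold change of 2.71 (95% interval 0.69 to 4.74, standard error 0.94, adjusted p = 0.0412), the only call among the ligands. The call was lost without GLCC1 siRNA replicate 1, where the log2 fold change was 1.69 (adjusted p = 0.284 from edgeR), and without GLCC1 siRNA replicate 3 (2.86, adjusted p = 0.0532). It was also lost without control replicate 2 (2.10, adjusted p = 0.154) or control replicate 3 (2.54, adjusted p = 0.128), and with DESeq2 (adjusted p = 0.0552), while without control replicate 1 the log2 fold change was 4.01 (adjusted p = 0.0357). An exact permutation test on its CPM gave p = 0.2, where 0.1 is the smallest value that 3 libraries against 3 allow.

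IFNL2 and IFNL3 are neighbouring copies on chromosome 19 (hg19 chr19:39759036-39760828, plus strand, and chr19:39734095-39735890, minus strand). Their canonical transcripts are identical at 97% of 708 aligned bases, against 78.9% between IFNL1 and IFNL2 and 80.3% between IFNL1 and IFNL3. Since the counting left out reads that map to several places, counts of IFNL2 and IFNL3 are uncertain, both in size and in how they are split between these genes. Read pairs that did not map to a single place made up 12% to 12.4% of a control library and 10.8% to 12.2% of a GLCC1 siRNA library.

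IFNL2 had 1, 0 and 0 counts in the control libraries and 1, 2 and 5 in the GLCC1 siRNA libraries. Only GLCC1 siRNA replicate 3 stood above 3 counts, and the ratio of summed counts was 7.95 (95% exact interval 1.07 to 353, adjusted p = 0.147 from edgeR). IFNL3 had 2, 1 and 0 counts in control and 9, 0 and 0 in GLCC1 siRNA libraries. All of its GLCC1 siRNA counts were in replicate 1, the groups overlapped, and the ratio of 2.98 had a 95% exact interval of 0.744 to 17.1 (adjusted p = 0.471 from edgeR). The library that was high thus differed between these close copies, replicate 3 for IFNL2 and replicate 1 for IFNL3.

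Summed over the lambda genes, the libraries held 6, 1 and 1 counts in control and 31, 3 and 13 in GLCC1 siRNA. GLCC1 siRNA replicate 2, the smallest library, was below control replicate 1, and the ratio was 5.84 (95% exact interval 2.73 to 14.3, exact permutation p = 0.2). Without GLCC1 siRNA replicate 1 the summed count of the group was 16 in place of 47.

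The receptor chains were expressed in every library, at between 11 and 109 CPM. Both chains of the type III receptor fell, whereas no chain of the type I or type II receptor passed the test. Read against all genes, 2 of the 10 members fell where 16.8% of the tested genes did, and 1 rose, the ligand IFNL1, where 14.9% did. In 3 members every GLCC1 siRNA library was above every control library (IFNB1, IFNAR2 and IFNGR1), and in 2 it was below (IFNLR1 and IL10RB), against 22.2% and 24.1% of the tested genes. IFNL1 and IFNB1 passed the filter through the GLCC1 siRNA libraries alone, so that their place in these counts is partly set by it. Among the 6 receptor chains, which passed it in both conditions, 0 rose and 2 fell. The shares of the members are near those of all genes, and the counts are therefore no result about the members as a group. In bulk RNA, fewer cells that express a gene and less RNA of it per cell cannot be told apart.

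IL10RB, the shared second chain of the type III receptor (hg19 chr21:34638672-34683725, plus strand), had 22.3, 22.6 and 22.1 CPM in the control libraries and 11, 13.1 and 13.4 CPM in the GLCC1 siRNA libraries. The groups did not overlap, and the control libraries lay within a narrow range. Its mean was 22.3 ± 0.243 CPM (SD, n = 3) in control and 12.5 ± 1.29 CPM (SD, n = 3) in GLCC1 siRNA libraries. The fold was 0.56, a log2 fold change of -0.84 (standard error 0.11, 95% interval -1.08 to -0.59, adjusted p = 7.75e-05 from edgeR). Leaving out any single library gave -0.89 to -0.74, and the value was -0.72 with library totals only. The exact permutation test gave p = 0.1, the smallest value this design allows.

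IFNLR1, the chain specific to the lambda interferons (hg19 chr1:24480658-24514449, minus strand), had 31.5, 39.2 and 35.8 CPM in control and 27.1, 24.2 and 26.6 CPM in GLCC1 siRNA libraries. No GLCC1 siRNA library reached the lowest control library. The mean was 35.5 ± 3.88 CPM (SD, n = 3) against 25.9 ± 1.56 CPM (SD, n = 3), a fold of 0.73. In edgeR this was a log2 fold change of -0.45 (95% interval -0.68 to -0.22, standard error 0.11, adjusted p = 0.00543), and -0.33 with library totals only. Leaving out control replicate 2, its highest library, gave -0.37 with an adjusted p of 0.046.

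IFNAR1, the first chain of the type I receptor (hg19 chr21:34696692-34732170, plus strand), had 87.8, 82.9 and 85 CPM in control and 77.6, 109 and 84.3 CPM in GLCC1 siRNA libraries. GLCC1 siRNA replicate 2 was the highest library and replicate 1 the lowest, on either side of the control range. Its log2 fold change was 0.08 (95% interval -0.17 to 0.33, adjusted p = 0.634 from edgeR), and it was -0.07 without GLCC1 siRNA replicate 2. 

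IFNAR2, the second chain of that receptor (hg19 chr21:34577587-34637980, plus strand), had 25.6, 22.9 and 25.2 CPM in control and 25.8, 27.9 and 26.5 CPM in GLCC1 siRNA libraries. The groups did not overlap, but the nearest libraries differed by less than the spread within control. Its log2 fold change was 0.12 (95% interval -0.09 to 0.33, adjusted p = 0.386 from edgeR).

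IFNGR1, the ligand-binding chain of the interferon gamma receptor (hg19 chr6:137518620-137540586, minus strand), had 67.3, 68.7 and 64.4 CPM in control and 72.6, 76.1 and 75.5 CPM in GLCC1 siRNA libraries. All GLCC1 siRNA libraries were above all control libraries. The log2 fold change of 0.16 (95% interval -0.02 to 0.34) had an adjusted p of 0.162 from edgeR. It passed the threshold with library totals only (0.28, adjusted p = 0.0195), a scaling that moved all genes upwards, and without GLCC1 siRNA replicate 2 (0.15, adjusted p = 0.0336).

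IFNGR2, the partner chain (hg19 chr21:34775719-34851655, plus strand), had 46.5, 48 and 49.1 CPM in control and 44.9, 48 and 54 CPM in GLCC1 siRNA libraries. The GLCC1 siRNA libraries lay on both sides of the control libraries. Its log2 fold change was 0.03 (95% interval -0.17 to 0.24, adjusted p = 0.82 from edgeR), and -0.04 without GLCC1 siRNA replicate 3. Of the 6 receptor chains, 0 rose at an adjusted p under 0.05 in edgeR or in DESeq2, and 0 rose at an unadjusted p under 0.05 in either tool.

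**Figure D1:**
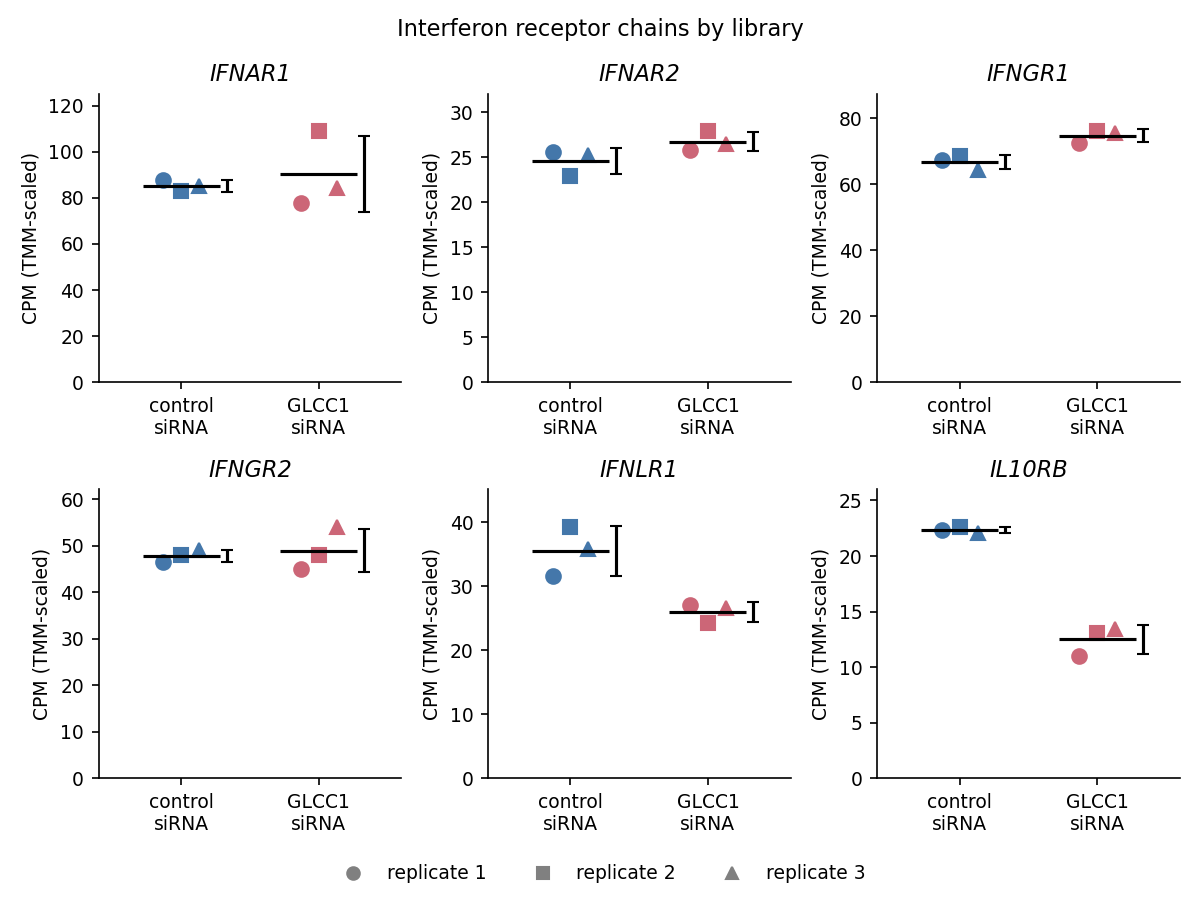
Level of the 6 receptor chains (vertical axis, CPM after TMM scaling, from 0) in each control siRNA library (blue) and GLCC1 siRNA library (red). Horizontal lines are means and bars are SD over 3 libraries. IL10RB and IFNLR1 lay below the control libraries in every GLCC1 siRNA library, and the spread of IFNAR1 came from GLCC1 siRNA replicate 2 at 109 CPM.

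Ratios between chains within a library do not depend on how libraries are scaled. The log2 ratio of IL10RB to IFNAR2, its direct neighbour on chromosome 21, was -0.20, -0.02 and -0.19 in control and -1.22, -1.09 and -0.98 in GLCC1 siRNA libraries. The groups were far apart, with a difference of -0.96 (exact permutation p = 0.1). The log2 ratio of IFNLR1 to IFNAR1 sets the specific chain of the type III receptor against a chain of the type I receptor. It was -1.48, -1.08 and -1.25 in control and -1.52, -2.17 and -1.67 in GLCC1 siRNA libraries. The means were -1.27 ± 0.20 (SD, n = 3) and -1.79 ± 0.34 (SD, n = 3), a difference of -0.52 (exact permutation p = 0.1). The groups nearly touched, and GLCC1 siRNA replicate 2, where IFNAR1 was highest, had the lowest ratio. For chains of the same receptor, the difference was -0.05 for IFNAR1 to IFNAR2 (exact permutation p = 0.8) and 0.13 for IFNGR1 to IFNGR2 (exact permutation p = 0.3). Between the type III chains, IL10RB to IFNLR1 changed by -0.39 (exact permutation p = 0.1), with no overlap between the groups. Over the 6 ratios computed, 0.1 is the smallest p that the design allows before any adjustment, and no ratio can pass 0.05.

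**Figure D2:**
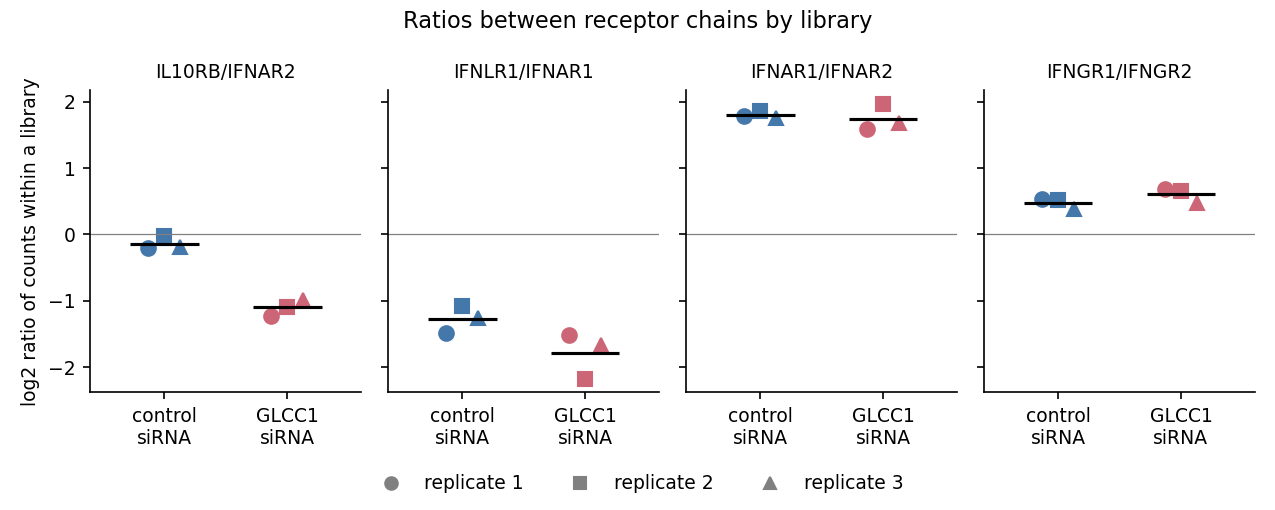
Log2 ratio of the raw counts of 2 receptor chains within each library (vertical axis), for control siRNA (blue) and GLCC1 siRNA (red) libraries, with lines at the means over 3 libraries. IL10RB to IFNAR2 dropped from a mean of -0.14 to -1.10, whereas IFNAR1 to IFNAR2 had means of 1.79 and 1.74.

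Levels of different genes were compared only per kilobase of transcript, with lengths from GENCODE 44, which need not match the annotation used for counting. With the length of all merged exons, the control libraries had 18.8 ± 0.615 CPM per kilobase for IFNGR1 and 18.8 ± 0.515 for IFNGR2, which did not differ beyond their spread. IFNLR1 followed at 7.18 ± 0.786, IFNAR1 at 5.43 ± 0.157, IL10RB at 2.78 ± 0.0303 and IFNAR2 at 1.77 ± 0.108 (SD, n = 3 each). In the GLCC1 siRNA libraries IFNLR1 was at 5.25 ± 0.316 and IFNAR1 at 5.76 ± 1.05, which did not differ beyond their spread, and IL10RB (1.56 ± 0.161) was below IFNAR2 (1.93 ± 0.0774). With the length of the canonical transcript, an alternative added after seeing the data, IFNGR1 (32.2 ± 1.05 CPM per kilobase) was above IFNGR2 (28.2 ± 0.77) in control, and IFNAR1 (14 ± 0.405) and IL10RB (11.5 ± 0.125) were above IFNLR1 (7.77 ± 0.851). In the GLCC1 siRNA libraries, IFNAR1 (14.9 ± 2.71) was then above IFNLR1 (5.68 ± 0.342), and IL10RB (6.46 ± 0.665) and IFNAR2 (6.56 ± 0.264) did not differ beyond their spread. The ligands had group means of at most 0.114 CPM per kilobase in control and 0.697 in GLCC1 siRNA libraries with merged exons, and at these counts their order was not established.

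IFNAR2, IL10RB, IFNAR1 and IFNGR2 lie in that order within 1 cluster on chromosome 21, all on the plus strand. Only IL10RB fell among these neighbours, by the test of each gene. The annotation (GENCODE 44 on hg19) holds a read-through gene, IFNAR2-IL10RB, which shares 21.6% of the merged exon bases of IL10RB and 14.7% of those of IFNAR2. No row of the count files carries that name. Only 33472 of the 56638 symbols matched GENCODE 44 names, so a row under another name may exist. Genes on the other strand cover 13% of the exon bases of IFNAR2 and 15% of those of IFNGR2, and the strand setting of the counting is not given in the sources used here. The 7-base word ACCTTGA, which pairs with the seed (bases 2 to 8) of the study's first GLCC1 siRNA, the number that the genotype labels give for all 3 libraries, was in the canonical 3′ untranslated region of 0 of the 10 members, against 10.8% of 18984 genes. The sample titles also number the libraries within each group, which was read here as the replicate and not as the siRNA used. The seed of the study's other GLCC1 siRNA was not searched.

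The genes whose profile over the 6 libraries was nearest to that of IL10RB, by the Euclidean distance between log2 CPM values centred on each gene's mean, were S100A10, TGM2, SETD3, PDP2 and GLIPR2, at distances of 0.102 to 0.128 among 14874 genes. S100A10, an annexin partner, had 381 CPM in control and 211 CPM in GLCC1 siRNA libraries as means, and TGM2, a transglutaminase, had 14.3 and 7.61 CPM. The 5 log2 fold changes were between -0.92 and -0.83, close to the -0.84 of IL10RB, as the choice by distance requires.

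Other interferon genes were mostly without counts. Of 18 further interferon genes listed, 13 had no count in any library, and IFNE, an epithelial type I interferon, was the only gene tested. IFNE had 4, 3 and 3 counts in control and 25, 11 and 22 in GLCC1 siRNA libraries, so that every GLCC1 siRNA library was above every control library. The ratio of its summed counts was 5.76 (95% exact interval 2.92 to 12.7), and the log2 value of edgeR was 2.46 with a standard error of 0.43 and an adjusted p of 5.62e-04. It lies inside the long noncoding RNA gene MIR31HG on the same strand, which itself had 0, 0 and 1 counts in control and 1, 3 and 5 in GLCC1 siRNA libraries. The lambda pseudogene IFNL3P1 had 25, 39 and 37 counts in control and 47, 17 and 34 in GLCC1 siRNA libraries, a ratio of 0.964 (95% exact interval 0.723 to 1.29).

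Of 8 further genes of the interleukin 10 family, among them chains that pair with IL10RB, 4 were tested, of which 1 rose and 2 fell (median log2 fold change 0.13). Among all genes tested, 14.9% rose and 16.8% fell. IL10RA, which pairs with IL10RB to bind interleukin 10, had 2.13, 2.97 and 3.01 CPM in control and 1.09, 1.19 and 1.29 CPM in GLCC1 siRNA libraries (log2 fold change -1.19, adjusted p = 0.0019 from edgeR). IL22RA1, which pairs with it to bind interleukin 22 and lies next to IFNLR1 on chromosome 1, fell from a mean of 36.2 CPM to 29.3 CPM (log2 fold change -0.30, adjusted p = 0.0452 from edgeR). IL20RA, which pairs with it to bind interleukin 26, rose from a mean of 7.62 CPM to 12.1 CPM (log2 fold change 0.67, adjusted p = 7.67e-04 from edgeR). IL20RB, which does not pair with IL10RB but shares IL20RA, had a log2 fold change of 0.56 (adjusted p = 0.0779 from edgeR).

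Directly below the receptors, 1 of the 5 signalling genes described here rose and 4 did not pass the test, with a median log2 fold change of 0.29. Among all genes tested, 14.9% rose. STAT2, a transcription factor of type I and type III signalling, had 81, 89.2 and 80.2 CPM in control and 138, 99.7 and 108 CPM in GLCC1 siRNA libraries. The groups did not overlap, and its log2 fold change was 0.47 (adjusted p = 0.00624 from edgeR). The receptor-bound kinases JAK1 and TYK2 had log2 fold changes of 0.00 and -0.03 (adjusted p = 0.996 and 0.876 from edgeR). IRF9, which binds DNA together with STAT2, and JAK2, a kinase of the gamma receptor, had 0.31 and 0.29 (adjusted p = 0.101 and 0.0942 from edgeR).

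Of 14 genes that lead to interferon gene induction, 8 rose, 3 fell and 3 did not pass the test, with a median log2 fold change of 0.46. Among all genes tested, 14.9% rose and 16.8% fell, and this list was chosen with earlier results of these data known. DDX58, the sensor RIG-I for viral RNA, had 56.4, 60.4 and 56.4 CPM in control and 229, 219 and 186 CPM in GLCC1 siRNA libraries, which is 1.87 on the log2 scale (adjusted p = 2.94e-08 from edgeR). IFIH1, the related sensor MDA5, and TLR3, the endosomal sensor of double-stranded RNA, had log2 fold changes of 1.55 and 1.19 (adjusted p = 3.14e-07 and 3.26e-05 from edgeR). MB21D1, the DNA sensor cGAS, had 1.05, and DHX58, the third member of the RIG-I family, had 2.67 from a mean under 1 CPM in control (adjusted p = 1.99e-04 and 4.48e-04 from edgeR). The adaptors MAVS and TICAM1 and the NF-kB subunit RELA fell, with log2 fold changes of -0.47, -0.51 and -0.58 (adjusted p = 0.00222, 0.0314 and 0.00136 from edgeR). IRF3, the factor that switches on IFNB1, had 97.6 CPM in control and 98.6 CPM in GLCC1 siRNA libraries on average, and TBK1, its kinase, had 68.7 and 66.9 CPM (adjusted p = 0.922 and 0.774 from edgeR).

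Of 7 genes that restrain the interferon receptors, 4 rose, 1 fell and 2 did not pass the test, with a median of 0.32. Among all genes tested, 14.9% rose and 16.8% fell, and this list too was chosen with earlier results known. USP18, which blocks signalling at IFNAR2, had 23.7, 26.2 and 27.3 CPM in control and 105, 71.4 and 80.9 CPM in GLCC1 siRNA libraries, with no overlap (log2 fold change 1.74, adjusted p = 6.32e-07 from edgeR). ISG15, a ubiquitin-like protein that stabilizes USP18, had a log2 fold change of 1.17 (adjusted p = 5.49e-05 from edgeR). BTRC, a ubiquitin ligase subunit that directs the IFNAR1 protein to degradation, had 0.79 (adjusted p = 2.2e-05 from edgeR). The IFNAR1 count, which did not pass the test, measures RNA and not that protein. PTPN6, the gene of the list that fell, went from a mean of 44.2 CPM to 30.9 CPM (log2 fold change -0.51, adjusted p = 0.00358 from edgeR). PTPN11 rose from a mean of 259 CPM to 323 CPM (log2 fold change 0.32, adjusted p = 0.0202 from edgeR). SOCS1 and SOCS3, feedback inhibitors of the Janus kinases, had log2 fold changes of 0.20 and -0.16 (adjusted p = 0.746 and 0.57 from edgeR).

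All 14 listed genes induced by type I and type III interferon rose, and their median log2 fold change was 2.82, where that of all genes was 0.03, but the list was written with earlier results of these data in view and is not independent evidence of its direction. IFIT1, an antiviral RNA-binding protein, had 85.5, 91 and 73.6 CPM in control and 597, 498 and 444 CPM in GLCC1 siRNA libraries (log2 fold change 2.62, adjusted p = 1.32e-08 from edgeR). Of 12 genes induced mainly by interferon gamma, 9 were tested. Of these, 6 passed the filter on low counts in both conditions, and 5 of the 6 rose, whereas GBP4, CXCL9 and CD74 passed it through the GLCC1 siRNA libraries alone, so that their rise was partly set by the filter. Among all genes tested, 14.9% rose, and this list too was chosen with earlier results known. IDO1 and HLA-DRA had no count in any library, and GBP5 had too few to be tested. CXCL10, a chemokine that type I interferon also induces, went from means under 1 CPM to 3.34, 1.43 and 1.96 CPM, and IRF1 had a log2 fold change of 0.50 (adjusted p = 0.023 from edgeR). CIITA, the switch for MHC class II genes, had 0.38 (adjusted p = 0.401 from edgeR). IFNG, the ligand of IFNGR1 and IFNGR2, had 0 counts in each of the 6 libraries, which allows up to 3 counts in each.

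The fall of the type III chains was measured beside a fall of epithelial keratins. KRT8, KRT18 and KRT19, keratins of simple epithelium, had log2 fold changes of -1.61, -1.82 and -1.34 (adjusted p = 9.34e-08, 2.14e-08 and 5.21e-07 from edgeR), and in all, 5 of the 8 epithelial markers fell, 1 rose and 2 did not pass the test. CDH1, the epithelial cadherin, fell by 0.53 on the log2 scale (adjusted p = 2.97e-04 from edgeR). CDH17 rose, with a log2 fold change of 0.45 (adjusted p = 0.002 from edgeR). VIL1 and CDX2, which did not pass, had 0.21 and -0.24 (adjusted p = 0.067 and 0.0544 from edgeR). Among all genes tested, 16.8% fell and 14.9% rose. The part of these markers in the result for IFNLR1 and IL10RB was not tested.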

How the data were processed

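RNA of 3 control siRNA and 3 GLCC1 siRNA libraries was measured by paired-end sequencing. Reads were aligned by the authors to hg19 (TopHat 2.0.11) and counted with HTSeq in union mode, and they deposited raw counts per gene symbol, without normalization. Tallies for read pairs without a gene, between 30% and 30.9% of a library, were removed. No library was a copy of another of its group (chi-square per degree of freedom between 1.84 and 17.1).

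Genes with under 5 summed counts in both conditions were removed, as the study's methods state. The remaining 23074 genes were compared in edgeR 4.0.16 (robust quasi-likelihood test, TMM factors between 0.95 and 1.053, Benjamini-Hochberg adjustment, threshold 0.05) under R 4.3.3, with DESeq2 1.42.0 as an alternative. Single values were compared with two-sided exact permutation tests over 20 assignments. Ratios of summed counts have exact conditional 95% intervals. The calls of edgeR and DESeq2 were tested on simulated data, in which only genes at levels above those of the ligands were changed. That test therefore does not cover the ligands.

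The members and the gene lists were chosen with earlier results of these data known. A gene of the signalling list is not reported here. From each list, genes were named that had an adjusted p under 0.05, a fold of at least 2 and no overlap between conditions, or were the most abundant that did not pass, at most 5 a list, and others were chosen after their values were seen. Positions, exons and lengths are from GENCODE 44 on hg19, to whose names 33472 of 56638 symbols were matched, and promoter windows from the RefSeq table on GRCh38.p14, which held 9 of the 10 members. Between 11948790 and 19042516 counts per library give a standard error of 0.11 on the log2 scale at the level of IL10RB and 0.94 at that of IFNL1. With 3 libraries a group, no exact p falls below 0.1. Alternatives were DESeq2, DESeq2 size factors, library totals, a minimum of 1 count in any library or 10 in every library, a block for the replicate number, and the omission of each library.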

Additional observations from a re-analysis of the deposited data

How the results depend on the processing

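IFNLR1 and IL10RB fell with an adjusted p under 0.05 under every alternative run. The count of members that rose, 1 in edgeR, was 0 with DESeq2 and with the filter of 10 counts in every library, which leaves out the ligands by its construction, 2 with library totals, and 0 to 2 with a library left out. The call of IFNL1 was lost with DESeq2 (2.72, adjusted p = 0.0552), and its log2 fold change was 1.69 to 4.01 with a library left out. IFNGR1 passed with library totals (0.28, adjusted p = 0.0195) and was 0.14 to 0.19 with a library left out. The log2 fold change of IFNAR1 turned to -0.07 without GLCC1 siRNA replicate 2 (range -0.07 to 0.18) and that of IFNGR2 to -0.04 without GLCC1 siRNA replicate 3 (range -0.04 to 0.10), neither of them called, and the cause was not tested. Among all genes, 2381 to 4843 rose and 2835 to 5079 fell with a library left out, against 3427 and 3866. Of 111 log2 fold changes recomputed for the members, 99 kept their direction and their side of the threshold, and 3, of IFNB1, IFNL2 and IFNL3, had no adjusted p in DESeq2. Ligands dropped out of some fits with a library left out, where they failed the filter.

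No effect shared by same-numbered libraries was seen, since their correlations of deviations were -0.16, -0.29 and -0.01 over 14875 genes. These values cannot show whether the libraries were prepared in pairs. With the replicate block, 3008 genes rose and 3523 fell, IFNL1 had a log2 fold change of 2.55 (adjusted p = 0.0185 from edgeR), IFNLR1 -0.45 and IL10RB -0.84, and no member's call changed. Depth limits the ligands: 3 counts, the most that a count of 0 allows, are 0.156 to 0.239 CPM. IFNB1, IFNL2 and IFNL3 did not pass the test. The spread between libraries is a further limit, as are, for IFNL2 and IFNL3, the reads left out of the counting because they map to several places.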
